A study of Mus musculus with 202 samples.

Results

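Cells of a mouse pancreatic cancer line that had been sorted as negative for surface E-cadherin were compared according to whether they still held the transcript of Cdh1, the gene that encodes E-cadherin. Each value is a log2(TPM + 1), where TPM is a cell's transcripts scaled to a fixed total per cell. Sorted-negative (Ecad-) cells with Cdh1 below 1 on this scale are called Cdh1-lacking, and those at 4 or more Cdh1-retaining, so the members were chosen by their measured Cdh1 level alone. There were 27 Cdh1-lacking cells and 40 Cdh1-retaining cells among 97 Ecad- cells, in a series of 197 cells. The other 30 Ecad- cells lay between the limits and are named where they are used. The 100 cells sorted as positive (Ecad+) did not enter the rule and serve as a point of comparison.

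All cells came from 1 line labelled KPC, male, derived from a liver metastasis and labelled as pancreatic ductal adenocarcinoma. The line was grown in DMEM with 10% serum and used at passages 4 to 6, so every group shares the same line and medium. Cells were detached with trypsin, stained with an antibody to E-cadherin and sorted. Single cells were captured in the chambers of a Fluidigm C1 device, with SMARTer amplification of their RNA and Nextera XT library preparation. The labels name no alleles beyond KPC, no separate cultures and no animals, so each group is 1 sample. What limits the groups as a model is that they come from 1 established line. Ecad- and Ecad+ cells were separated by surface staining alone, and the Ecad- classes by the measured level of 1 transcript. The values below therefore describe these cells, have no replicate check and carry no p-value. The spread given is the SD over cells.

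E-cadherin joins neighbouring epithelial cells at adherens junctions. Its outer part binds E-cadherin on the next cell, and its tail binds beta-catenin and p120-catenin, which link it to actin through alpha-catenin. A cell can lose E-cadherin from its surface by repression of the gene, through factors such as SNAI1, SNAI2, ZEB1 and TWIST1. It can also keep the transcript while the protein is shed, internalised or held inside the cell.

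Cdh1 (ENSMUSG00000000303), on chromosome 8 at 106603351 to 106670246 of mm10, was listed at exactly 0 in 19 of the 27 Cdh1-lacking cells. Because Cdh1 chose the groups, its values are a description. The lowest, median and highest levels were 0, 0 and 0.757 TPM in Cdh1-lacking cells, 15.2, 30.2 and 116 TPM in Cdh1-retaining cells and 3.70, 35.1 and 130.5 TPM in Ecad+ cells. A 0 says only that a gene was listed at 0, since transcripts can be missed in a single cell. No Ecad+ cell fell into the range of the Cdh1-lacking cells, while the Cdh1-retaining cells lay across much of the Ecad+ range. Close to the lower limit, the highest Cdh1-lacking cells stood at 0.81 and 0.48 on the log2 scale and the lowest cells between the limits at 1.45 and 1.60. Close to the upper limit, the lowest Cdh1-retaining cells stood at 4.02, 4.02 and 4.06, and the highest cells between the limits at 3.99 and 3.82. The lower limit fell in a gap, whereas the upper one lay within a continuous spread.

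**Figure D1:**
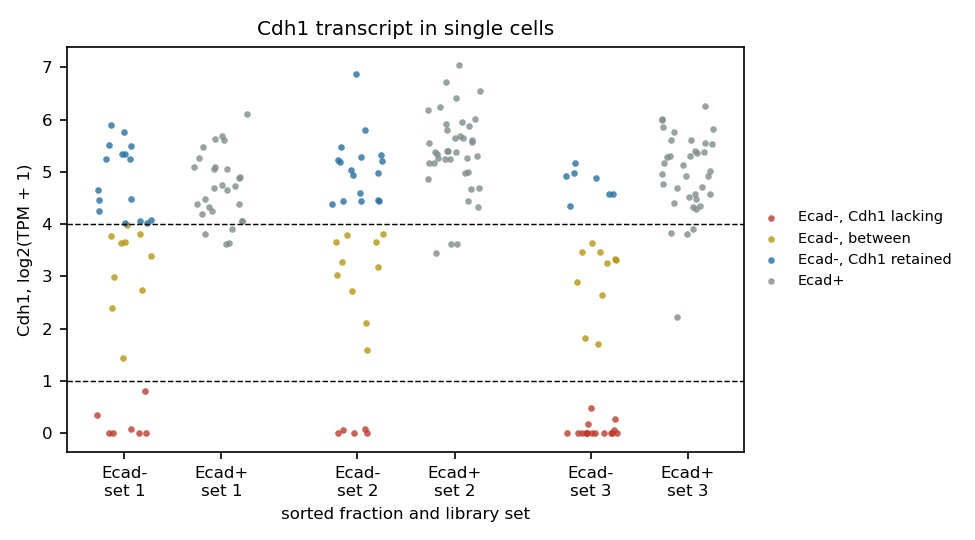
Cdh1 level in each cell, on a log2(TPM + 1) scale (y axis), by sorted fraction and library set (x axis). Points are cells, coloured by class, and dashed lines mark 1 and 4. A cell averaged from a pair of libraries is drawn in each of its sets, at its averaged value. Cdh1-lacking cells made up 16 of the 33 Ecad- cells of set 3, and no Ecad+ cell lay below 1.

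Cdh1-lacking cells were unevenly spread over the library sets. The library names carry 1 of 3 suffixes, treated here as sets 1, 2 and 3, of unstated meaning. Of the Ecad- libraries, 16 of 33 were Cdh1-lacking in set 3 (48.5%, exact 95% interval 30.8% to 66.5%), against 7 of 33 in set 1 (21.2%, 8.98% to 38.9%) and 5 of 32 in set 2 (15.6%, 5.28% to 32.8%). Cdh1-retaining libraries numbered 16, 17 and 7 in sets 1, 2 and 3. These intervals cover counting error only. In the whole series 5 pairs of libraries correlated at 0.984 to 0.994, above the next closest pair at 0.939, and each pair was averaged as 1 cell. The 1 such pair among Ecad- libraries was Cdh1-lacking and came from sets 2 and 1, so the Cdh1-lacking libraries sum to 28. Ratios within sets used the libraries, so this pair entered both set 1 and set 2, which are not fully separate.

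The mitochondrial share of TPM moved with the groups as well. Its median was 1.44% in Cdh1-lacking cells (quartiles 0.153% and 28.8%), 16.4% in Cdh1-retaining cells (0.352% and 30.6%) and 30.0% in Ecad+ cells (22.1% and 42.4%). The share was under 1% in 13 of 27 Cdh1-lacking cells, 11 of 40 Cdh1-retaining cells and 1 of 100 Ecad+ cells. Of the Cdh1-lacking libraries with such a share, 12 belonged to set 3. Within sets the order was not the same: the medians were 34.2%, 37.5% and 0.172% in Cdh1-lacking and 19.2%, 10.2% and 30.9% in Cdh1-retaining libraries of sets 1, 2 and 3. In sets 1 and 2 the share was higher in Cdh1-lacking libraries, and in set 3 it was far lower. The 30 cells between the limits had a median share of 0.554%, below both classes. The number of genes above 0 also moved with the groups, with medians of 8415 in Cdh1-lacking, 8833.5 in Cdh1-retaining and 10338 in Ecad+ cells. The Ecad- median of 8694 genes was reached by 8 of 27 Cdh1-lacking and 26 of 40 Cdh1-retaining cells. Read depth per cell is unknown, because TPM does not keep it. Values within each set, and among the 14 Cdh1-lacking and 29 Cdh1-retaining cells with a mitochondrial share of at least 1%, are therefore given beside the list medians and the genes the results turn on. What set membership, mitochondrial share or the number of genes above 0 contributes to a result was not tested.

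**Figure D2:**
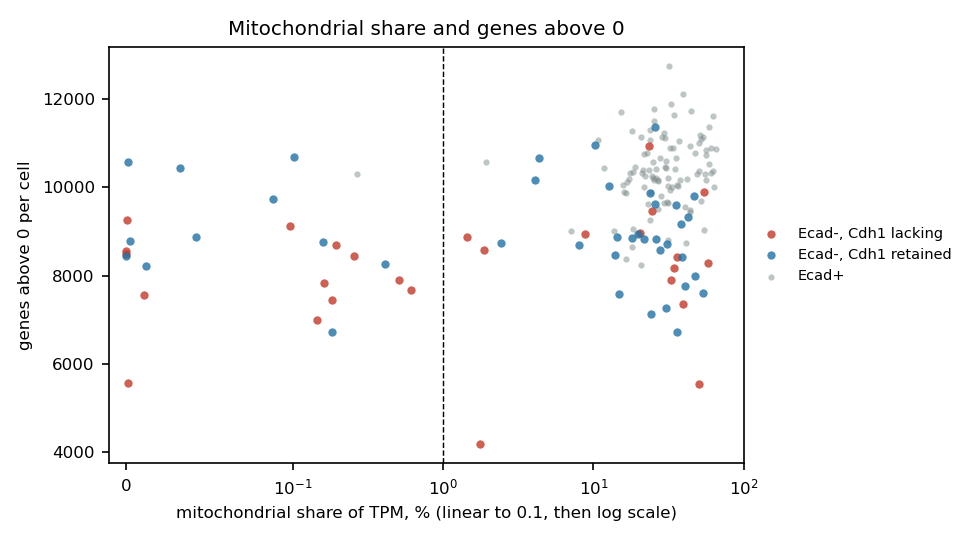
Mitochondrial share of TPM (x axis, percent, linear to 0.1 and logarithmic above) against genes above 0 per cell (y axis); each point is 1 cell and the dashed line marks a share of 1%. Cells to the left of the line include 13 of 27 Cdh1-lacking, 11 of 40 Cdh1-retaining and 1 of 100 Ecad+ cells.

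Nearly all cells of both classes held transcripts of an epithelial keratin pair, but other epithelial markers were found in fewer Cdh1-lacking cells. Krt18, which encodes a keratin of simple epithelia, was above 0 in 26 of 27 Cdh1-lacking and 40 of 40 Cdh1-retaining cells, and Krt8, its partner keratin, likewise. In some Cdh1-lacking cells Krt8 was close to 0, as in a cell at 0.16 on the log2 scale. Cldn7, a claudin gene, was above 0 in 9 of 27 Cdh1-lacking, 22 of 40 Cdh1-retaining and 95 of 100 Ecad+ cells. For Epcam, another epithelial marker, the counts were 5 of 27, 15 of 40 and 46 of 100. B2m, the light chain of class I molecules, was above 0 in all 27 and all 40. Most markers of other cell types were at low levels or 0, but some single cells held high levels of a few. None of 11 fibroblast and stellate, 7 endothelial or 10 acinar and endocrine markers passed the floor described below. Summed per cell, the fibroblast and stellate markers ran from 0 to 27.4 TPM in Cdh1-lacking and 0 to 1.26 TPM in Cdh1-retaining cells, and the endothelial markers from 0 to 67.9 TPM in Cdh1-lacking and 0 to 40.3 TPM in Cdh1-retaining cells. The acinar and endocrine markers ran from 0 to 3.76 TPM in Cdh1-lacking and 0 to 26.9 TPM in Cdh1-retaining cells. Among 11 immune markers Cd68, also a lysosomal gene of other cells, was the only one to pass. The sum over the list ran from 0 to 176 TPM in Cdh1-lacking and 0 to 370.1 TPM in Cdh1-retaining cells, with medians of 0.626 TPM in Cdh1-lacking and 1.27 TPM in Cdh1-retaining cells. Ptprc, which marks all leukocytes, was at 0 in every cell. Of 7 hepatocyte markers Apob and Ttr passed. The sum over the list ran from 0 to 79.7 TPM in Cdh1-lacking and 0 to 642 TPM in Cdh1-retaining cells, with medians of 0.179 TPM in Cdh1-lacking, 4.65 TPM in Cdh1-retaining and 17.3 TPM in Ecad+ cells. Alb, the albumin gene, was above 0 in 1 Cdh1-lacking cell, at 0.155 TPM, and in no other cell. The part of these markers in the results was not tested.

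For every gene the level of a group was the mean TPM over its cells. The ratio was log2 of the Cdh1-lacking mean over the Cdh1-retaining mean, with 1 TPM added to each. It is given relative to the median over all genes, which was -0.07 over all cells, -0.20 with a mitochondrial share of at least 1%, and -0.40, -0.45 and 0.54 within sets 1, 2 and 3. To pass the floor a gene needed a mean of 5 TPM or more over both groups, with 10% or more of their cells above 0, and 7371 genes passed. Of these, 493 (6.69%) were higher by 2-fold or more in Cdh1-lacking cells, and 566 (7.68%) were lower by as much. These percentages are the background for the gene groups below. With a mitochondrial share of at least 1% the percentages were 6.1% higher and 10.1% lower. Within sets 1, 2 and 3 they were 11.4%, 12.5% and 18.4% higher and 14.1%, 18.5% and 18.7% lower, in far fewer cells each. A difference had 1 direction in all 3 sets for 1068 higher (14.5%) and 1111 lower genes (15.1%). A 2-fold difference held over all cells, with a mitochondrial share of at least 1% and in each set for 29 higher and 95 lower genes of the 7371. Cdh1, which chose the groups, is itself 1 of the lower genes in each of these counts. Apart from Cdh1, the ranges of Cdh1-lacking and Cdh1-retaining cells overlapped for every gene named below.

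Over all cells no junction partner of E-cadherin was lower by 2-fold or more along with its transcript. Of 9 adherens junction genes other than Cdh1 that passed the floor, 3 had ratios above and 6 below the all-gene median, with a median relative log2 ratio of -0.11. Within sets 1, 2 and 3 the list median was -0.040, -0.18 and 0.070, and with a mitochondrial share of at least 1% it was -0.12. Ctnnb1, which encodes beta-catenin, had a lowest, median and highest level of 0, 9.55 and 68.9 TPM in Cdh1-lacking cells, 0, 20.2 and 66.0 TPM in Cdh1-retaining cells and 0.529, 21.2 and 130.4 TPM in Ecad+ cells. The 3 distributions overlapped over most of their range, and the relative log2 ratio was -0.45. It was -0.73, -0.75 and 0.070 within sets and -1.30, past 2-fold, with a mitochondrial share of at least 1%. Ctnna1, the alpha-catenin gene, averaged 55.3 ± 52.0 TPM in Cdh1-lacking and 63.1 ± 47.6 TPM in Cdh1-retaining cells (relative -0.11), against 63.6 ± 32.1 TPM in Ecad+ cells. Ctnnd1, which encodes p120-catenin, stood at -0.50 and Jup, which encodes plakoglobin, at -0.093. Nectin-3, encoded by Pvrl3, stood at -0.35, the beta-catenin inhibitor gene Ctnnbip1 at -0.17, Mllt4, the afadin gene, at 0.61 and the actin-binding protein gene Lima1 at 0.56. Vcl, which encodes vinculin, was the single member higher by 2-fold, at 1.00, with 16.0 ± 26.7 TPM in Cdh1-lacking and 7.92 ± 9.61 TPM in Cdh1-retaining cells. In set 3 with a mitochondrial share of at least 1%, Vcl was on the lower side.

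Transcripts of factors known to repress Cdh1 did not separate the classes. Of 12 such genes above the floor, 4 lay above and 8 below the all-gene median, and the list median was -0.16 (0.14, -0.15 and -0.0074 within sets, -0.14 at a share of at least 1%). None was higher by 2-fold or more. Snai2, which encodes the repressor SLUG, had a lowest, median and highest level of 0, 0.131 and 181 TPM in Cdh1-lacking cells, 0, 3.59 and 109.6 TPM in Cdh1-retaining cells and 0, 0 and 62.6 TPM in Ecad+ cells. It was above 0 in 16 of 27 Cdh1-lacking and 23 of 40 Cdh1-retaining cells. Both Ecad- classes had a mean above that of Ecad+ cells, at 26.5 ± 50.0 TPM in Cdh1-lacking and 20.8 ± 31.8 TPM in Cdh1-retaining cells, against 3.51 ± 7.83 TPM in Ecad+ cells. Between the Ecad- classes the relative log2 ratio came to 0.40, with within-set values of -0.62, -0.23 and 0.43 and 0.88 at a share of at least 1%. Twist1 stood at -0.24 and the corepressor gene Ctbp1 at -0.70. Zeb1 stood at -0.14 and did not pass the floor, with 4.33 ± 5.79 TPM in Cdh1-lacking and 5.16 ± 8.44 TPM in Cdh1-retaining cells. Foxq1, a forkhead factor, was the 1 member lower by 2-fold or more, at -1.54, but stood at 0.83, -0.61 and -3.82 within sets, -1.36 at a share of at least 1%. Vim, the vimentin gene often used as a mesenchymal marker, averaged 269.5 ± 277 TPM in Cdh1-lacking and 249 ± 178 TPM in Cdh1-retaining cells, below the 454 ± 308 TPM of Ecad+ cells (relative 0.19, 0.87, 0.38 and 0.12 within sets, 0.088 at a share of at least 1%). Over 7 mesenchymal genes above the floor the list median was 0.14, but 0.050, 1.09 and -0.63 within sets and -0.39 at a share of at least 1%. Over all cells none of them was higher by 2-fold or more and 1 was lower, against 6.69% and 7.68% of all genes.

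Genes acting on E-cadherin protein after synthesis gave a small difference. The list holds metalloproteases, ubiquitin ligases and endocytic and recycling factors, and 19 members passed the floor with a median of 0.16. Within sets it was 0.0090, 0.46 and 0.45, and at a share of at least 1% it was 0.071. Of these genes, 7 were higher in each of the 3 sets and none was lower in each, against 14.5% and 15.1% of all genes. Mdm2, a ubiquitin ligase best known for p53 that can also target E-cadherin, was the 1 member past 2-fold, with 88.5 ± 126 TPM in Cdh1-lacking and 29.3 ± 36.8 TPM in Cdh1-retaining cells (relative 1.64, 0.48, 0.97 and 1.86 within sets, 2.14 at a share of at least 1%). Rab7, a regulator of traffic to lysosomes, averaged 400.4 ± 363 TPM in Cdh1-lacking and 263 ± 184 TPM in Cdh1-retaining cells (relative 0.68, 0.37, 0.69 and 0.69 within sets, 0.069 at a share of at least 1%). Adam10, the metalloprotease that sheds E-cadherin, was on the lower side at -0.86, but not in set 2 (0.74).

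Epithelial genes outside the junction split by library set. Of 6 keratins above the floor the list median was -0.050, against 1.14, 0.72 and -1.48 within sets 1, 2 and 3 and 0.47 at a share of at least 1%. Krt18 had a lowest, median and highest level of 0, 844 and 8408 TPM in Cdh1-lacking cells and 80.1, 812 and 8399 TPM in Cdh1-retaining cells, and 186, 1468 and 6440.4 TPM in Ecad+ cells, so the medians of the Ecad- classes nearly coincided. Krt19, a ductal keratin, averaged 178 ± 312 TPM in Cdh1-lacking and 426 ± 539.6 TPM in Cdh1-retaining cells (relative -1.18). Its relative ratio was 0.042, 0.72 and -3.48 within sets, -0.83 at a share of at least 1%, so it was past 2-fold in set 3 and on the other side in sets 1 and 2. Krt7, another ductal keratin, was the 1 member lower in each set (-0.85, -1.07 and -1.74 within sets, -1.19 at a share of at least 1%). The lowest, median and highest Krt7 levels were 0, 3.92 and 526 TPM in Cdh1-lacking cells, 0, 148 and 790.2 TPM in Cdh1-retaining cells and 17.5, 542 and 2162 TPM in Ecad+ cells. Even the upper quartile of Cdh1-lacking cells, at 66.7 TPM, lay below the lower quartile of Cdh1-retaining cells, at 68.8 TPM.

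A minority of claudin and epithelial surface genes were lower by 2-fold or more, and among the sets both list medians were far below 0 in set 3 only. Of 14 tight junction genes 12 lay below the all-gene median, with a list median of -0.42 (-0.15, 0.47 and -1.19 within sets, -0.32 at a share of at least 1%). The 4 lower by 2-fold or more were the claudins Cldn3 (-1.89), Cldn7 (-1.37) and Cldn6 (-1.21) and the polarity gene Pard3. Cldn3 stood at 0.40 in set 1 and Cldn7 at -0.091, whereas Cldn6 stood at -0.78, -1.31 and -0.83 in the 3 sets. Of 10 epithelial surface and secreted genes 9 lay below, with a list median of -0.64 (-0.15, 0.34 and -1.50 within sets, -0.24 at a share of at least 1%). Epcam, which encodes an epithelial adhesion protein, was above 0 in 5 of 27 Cdh1-lacking cells (18.5%, exact interval 6.30% to 38.1%), 15 of 40 Cdh1-retaining cells (37.5%, exact interval 22.7% to 54.2%) and 46 of 100 Ecad+ cells (46.0%, exact interval 36.0% to 56.3%). Its highest level was 61.2 TPM in Cdh1-lacking and 260.1 TPM in Cdh1-retaining cells, and its relative log2 ratio was -2.76, with -3.50, -2.51 and -4.56 within sets, -4.37 at a share of at least 1%. Most cells of both classes lacked it, so these ratios rest on few cells. The mucin gene Muc1 (-1.52) and the mesothelin gene Msln (-1.10) were also lower by 2-fold or more, but not in set 2 (0.10 and 0.68).

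Of the genes that attach cells to the matrix, Itgb1 and Lama5 were lower by 2-fold or more over all cells and in each set. Of the 8 integrin and laminin genes that passed, 7 had ratios below the all-gene median, 4 were lower by 2-fold or more against a background of 7.68%, and none was higher by as much. The list median was -0.88, with -0.39, -0.014 and -1.35 within sets and -0.86 with a mitochondrial share of at least 1%. Itgb1 (chromosome 8, 128685654 to 128733200) encodes the beta subunit shared by most matrix integrins. It had a lowest, median and highest level of 0, 17.6 and 71.7 TPM in Cdh1-lacking cells, 0, 59.9 and 280.3 TPM in Cdh1-retaining cells and 15.1, 49.7 and 165 TPM in Ecad+ cells. It was above 0 in 19 of 27 Cdh1-lacking, 38 of 40 Cdh1-retaining and 100 of 100 Ecad+ cells. The upper quartile in Cdh1-lacking cells (38.0 TPM) lay below the lower quartile in Cdh1-retaining cells (43.6 TPM). The relative log2 ratio was -1.65 over all cells, -1.23, -1.67 and -1.70 within sets, and -1.58 with a mitochondrial share of at least 1%. The difference thus had a like size in each set.

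Lama5, a basement membrane laminin chain, behaved alike. Its lowest, median and highest levels were 0, 0.257 and 60.6 TPM in Cdh1-lacking cells, 0, 20.0 and 165 TPM in Cdh1-retaining cells and 0.150, 21.4 and 115 TPM in Ecad+ cells. Retaining and Ecad+ cells had nearly the same median, and the relative log2 ratio between the Ecad- classes was -1.54, with -1.95, -1.65 and -2.05 within sets, -1.85 at a share of at least 1%. The integrin genes Itgb5 (-1.35) and Itga3 (-1.15) were lower as well, but Itgb5 stood at 0.75 in set 2 and Itga3 at 0.24 and 0.048 in sets 1 and 2. Pard3, which encodes a scaffold that sets up apical-basal polarity at junctions, was lower in each set (-2.05, -2.01 and -1.23 within sets, -2.72 at a share of at least 1%, -2.43 over all cells). Its lowest, median and highest levels were 0, 0 and 13.8 TPM in Cdh1-lacking cells, 0, 3.78 and 81.0 TPM in Cdh1-retaining cells and 0, 4.88 and 30.0 TPM in Ecad+ cells.

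**Figure D3:**
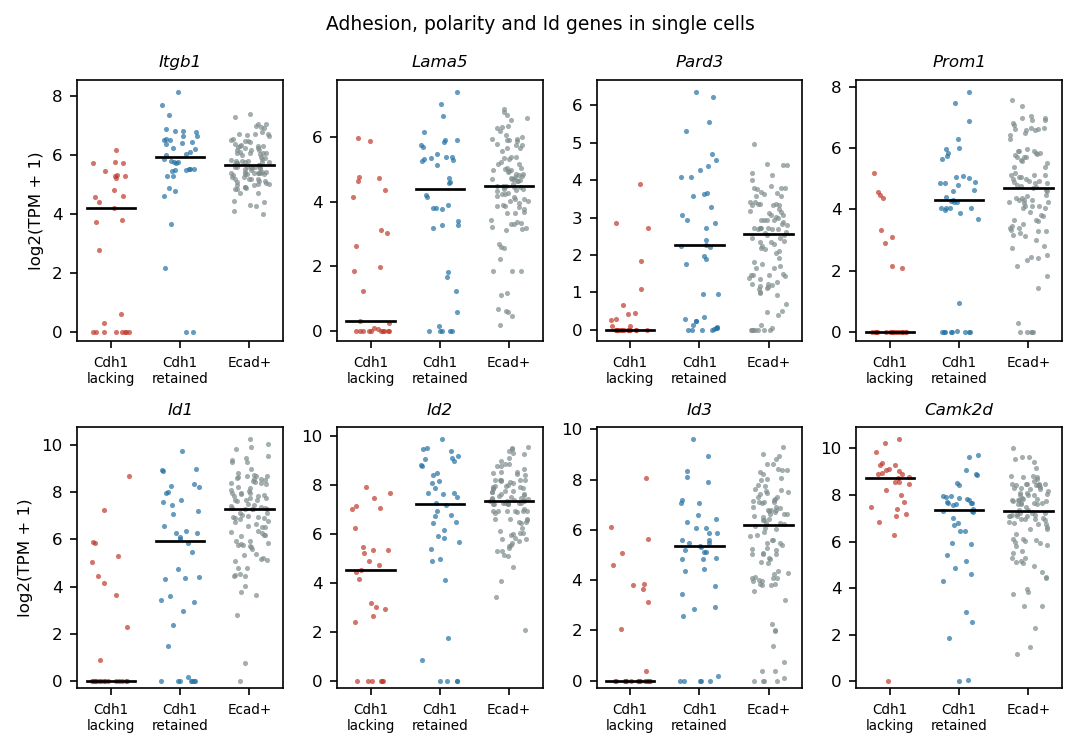
Levels of 8 genes, on a log2(TPM + 1) scale (y axis), in Cdh1-lacking, Cdh1-retaining and Ecad+ cells (x axis); each point is 1 cell and the line is the median. Itgb1, Lama5, Pard3, Prom1, Id1, Id2 and Id3 had lower medians in Cdh1-lacking than in Cdh1-retaining cells, and Camk2d had a higher one (428 TPM in Cdh1-lacking and 163 TPM in Cdh1-retaining cells).

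The Id genes, which answer to BMP and TGF-beta signalling and encode inhibitors of basic helix-loop-helix factors, were lower in Cdh1-lacking cells. In the list of 10 TGF-beta and BMP response genes above the floor, those lower by 2-fold or more were Id1, Id2, Id3 and Ltbp1. In each set 5 members were lower. Over all genes 7.68% were lower by 2-fold or more and 15.1% were lower in each set. The list median was -0.44, with -0.63, 0.033 and -0.85 within sets and -0.18 at a share of at least 1%, so the list did not move as a whole in set 2. Id2 (chromosome 12 at 25093799 to 25097140) had a lowest, median and highest level of 0, 22.3 and 240.5 TPM in Cdh1-lacking cells, 0, 148 and 926 TPM in Cdh1-retaining cells and 3.17, 162 and 738 TPM in Ecad+ cells. Its median in Cdh1-lacking cells lay below the lower quartile of Cdh1-retaining cells (47.9 TPM). The relative log2 ratio was -2.10, with -1.71, -2.65 and -3.15 within sets, -2.05 at a share of at least 1%. Id3 was above 0 in 11 of 27 Cdh1-lacking and 35 of 40 Cdh1-retaining cells. Its median and highest level were 0 and 266 TPM in Cdh1-lacking cells and 39.9 and 778 TPM in Cdh1-retaining cells (relative -2.17, -3.50, -2.08 and -2.28 within sets, -1.79 at a share of at least 1%). Id1 gave the same picture, with 29.7 ± 83.0 TPM in Cdh1-lacking and 132 ± 187 TPM in Cdh1-retaining cells, against 224 ± 235 TPM in Ecad+ cells (relative -2.04, -0.80, -1.46 and -3.32 within sets, -1.43 at a share of at least 1%). Ltbp1, which encodes a binding protein of latent TGF-beta, averaged 2.62 ± 3.37 TPM in Cdh1-lacking and 8.95 ± 8.43 TPM in Cdh1-retaining cells and was lower in each set (-1.03, -1.02 and -1.43 within sets, -1.42 at a share of at least 1%).

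Some immediate early genes, which respond within minutes to growth factors, were lower too. The list median over 13 genes was 0.45, but -1.04 with a mitochondrial share of at least 1% and -0.66, -0.68 and -1.03 within sets, so it changed sign between settings. Over all cells 7 of the 13 lay above and 6 below the all-gene median. Those lower by 2-fold or more, against a background of 7.68%, were Fos, Btg2, Ier2 and Junb, and no member was higher by as much. Ier2 had a lowest, median and highest level of 0, 14.0 and 105 TPM in Cdh1-lacking cells, 0.725, 53.4 and 286 TPM in Cdh1-retaining cells and 5.06, 71.7 and 366 TPM in Ecad+ cells. Its relative log2 ratio was -1.72, with -1.26, -3.72 and -2.67 within sets, -2.17 at a share of at least 1%. Junb, an AP-1 subunit, stood at -1.36 (-0.84, -1.16 and -2.66) and the antiproliferative gene Btg2 at -2.40 (-0.41, -1.03 and -4.96). Fos stood at -2.88 over all cells, but at 0.0029, -1.97 and -5.84 within sets, -2.31 at a share of at least 1%.

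The 12 genes ranked lower had 1 direction over all cells, over cells with a mitochondrial share of at least 1% and within each set. They were ordered by the smallest of these ratios. This rule used the ratios before the all-gene median was subtracted, unlike the relative ratios printed here. The ranked genes also had a mean of at least 20 TPM and were above 0 in at least 25% of cells. The ranking used these ratios, so their values are a description. Besides Id2, Id3, Ier2 and Lama5 they were Nrn1, Igfbp7, Nme3, Tpra1, Aldoc, Prom1, Cd14 and Amdhd2, with relative log2 ratios between -3.70 and -1.40 over the 12. Nrn1, which encodes the membrane-anchored protein neuritin, had a lowest, median and highest level of 0, 0 and 36.5 TPM in Cdh1-lacking cells, 0, 28.7 and 383 TPM in Cdh1-retaining cells and 6.28, 79.5 and 375 TPM in Ecad+ cells. The relative log2 ratio was -3.70, with -2.34, -4.62 and -5.22 within sets, -3.47 at a share of at least 1%. Igfbp7, a secreted binding protein of the insulin-like growth factor family, had 0, 0 and 149 TPM in Cdh1-lacking cells, 0, 106 and 1144 TPM in Cdh1-retaining cells and 0, 176 and 697 TPM in Ecad+ cells (relative -3.05, -1.97, -1.73 and -5.62 within sets, -2.77 at a share of at least 1%). Prom1, which encodes the apical membrane glycoprotein CD133, was above 0 in 9 of 27 Cdh1-lacking, 32 of 40 Cdh1-retaining and 95 of 100 Ecad+ cells. Its median and highest level were 0 and 35.2 TPM in Cdh1-lacking and 18.6 and 228 TPM in Cdh1-retaining cells (relative -2.50, -1.16, -2.84 and -3.80 within sets, -2.24 at a share of at least 1%).

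The remaining ranked genes serve varied roles. Nme3, a nucleoside diphosphate kinase gene, averaged 6.82 ± 17.1 TPM in Cdh1-lacking and 29.9 ± 31.3 TPM in Cdh1-retaining cells (relative -1.91, -1.37, -2.78 and -3.29 within sets, -1.51 at a share of at least 1%). Tpra1, which encodes a membrane protein, averaged 25.2 ± 31.7 TPM in Cdh1-lacking and 91.6 ± 79.6 TPM in Cdh1-retaining cells (relative -1.75, -1.63, -1.84 and -2.21 within sets, -1.38 at a share of at least 1%). Aldoc, a glycolytic aldolase gene, averaged 10.4 ± 26.7 TPM in Cdh1-lacking and 57.7 ± 152 TPM in Cdh1-retaining cells (relative -2.29, -1.85, -1.12 and -2.71 within sets, -1.73 at a share of at least 1%), but its median was 0 in both classes. Cd14, which encodes a co-receptor for bacterial lipopolysaccharide, averaged 17.0 ± 21.0 TPM in Cdh1-lacking and 48.9 ± 55.5 TPM in Cdh1-retaining cells (relative -1.40, -1.11, -1.61 and -2.22 within sets, -1.53 at a share of at least 1%). Amdhd2, an amino-sugar deacetylase gene, averaged 17.9 ± 27.3 TPM in Cdh1-lacking and 53.6 ± 84.5 TPM in Cdh1-retaining cells (relative -1.45, -1.70, -2.66 and -1.94 within sets, -2.07 at a share of at least 1%). In these 12 genes the mean of Cdh1-retaining cells lay within 2-fold of the Ecad+ mean for 11, and that of Cdh1-lacking cells for 1. Ecad+ cells entered neither the split nor the ranking, but each gene was chosen for a Cdh1-lacking mean far below the Cdh1-retaining mean. The Ecad- cells between the limits had a mean inside that of the 2 classes for all 12. The choice of genes partly sets these counts, and the same counts over all genes are not given here, so they are a description only.

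The 12 genes ranked higher by the same rule were Prc1, Bcl2l15, Clec2f, Rapgef2, Depdc1a, Camk2d, Fosl1, Arl5b, Ccdc101, Cav1, Chpt1 and Sgms2. Their relative log2 ratios lay between 0.77 and 2.61. Camk2d (chromosome 3 at 126596302 to 126846326) encodes a calcium- and calmodulin-dependent kinase subunit. Its lowest, median and highest levels were 0, 428 and 1341 TPM in Cdh1-lacking cells, 0, 163 and 842 TPM in Cdh1-retaining cells and 1.26, 156 and 1028 TPM in Ecad+ cells. The median Cdh1-lacking cell lay above the upper quartile of Cdh1-retaining cells (233 TPM), and the relative log2 ratio was 1.25, with 1.67, 1.44 and 0.57 within sets, 1.36 at a share of at least 1%. Bcl2l15, a BCL2 family gene, had a lowest, median and highest level of 0, 7.16 and 816 TPM in Cdh1-lacking cells, 0, 0 and 116 TPM in Cdh1-retaining cells and 0, 0 and 639.7 TPM in Ecad+ cells (relative 2.61, 2.82, 1.55 and 3.12 within sets, 2.05 at a share of at least 1%). It was above 0 in 18 of 27 Cdh1-lacking and 19 of 40 Cdh1-retaining cells.

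Several of these genes act at membranes or in signalling. Cav1, the caveolin gene, averaged 132 ± 366 TPM in Cdh1-lacking and 39.0 ± 61.4 TPM in Cdh1-retaining cells, with medians of 26.9 TPM in Cdh1-lacking and 3.37 TPM in Cdh1-retaining cells. One Cdh1-lacking cell stood at 1906 TPM. The relative log2 ratio was 1.81, with 2.63, 2.97 and 5.04 within sets, 1.04 at a share of at least 1%. Rapgef2, an activator of the GTPase Rap1, averaged 33.5 ± 42.8 TPM in Cdh1-lacking and 15.7 ± 24.7 TPM in Cdh1-retaining cells (relative 1.12, 1.94, 1.85 and 2.13 within sets, 1.29 at a share of at least 1%). Fosl1, which encodes the AP-1 subunit FRA1, averaged 49.6 ± 64.4 TPM in Cdh1-lacking and 20.0 ± 22.7 TPM in Cdh1-retaining cells (relative 1.35, 2.15, 1.67 and 0.43 within sets, 1.47 at a share of at least 1%). It was thus on the other side from Fos and Junb. Sgms2 and Chpt1, which make the membrane lipids sphingomyelin and phosphatidylcholine, stood at 0.77 and 1.67. The small GTPase gene Arl5b stood at 1.70 and Ccdc101 at 1.41. Clec2f, annotated as a transcribed pseudogene of the C-type lectin family whose reads can be shared with its relatives, stood at 1.12. For 9 of the 12 the Cdh1-retaining mean, and for 5 the Cdh1-lacking mean, lay within 2-fold of the Ecad+ mean. The cells between the limits had a mean inside that of the classes for 10 of the 12. As with the lower genes, the choice of genes partly sets these counts.

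Prc1, which encodes a spindle midzone protein, and Depdc1a, a gene expressed in mitosis, are genes of cell division. Short motifs mark the promoters of many such genes, among them the CHR (TTTGAA), bound by the DREAM and MuvB complexes, and the CCAAT box (CCAAT), bound by NF-Y. The promoters of these ranked genes are shown because both hold both motifs. The windows run from 250 bases before to 50 bases after the RefSeq start on GRCm38.p6, Prc1 at chr7:80294201-80294500 and Depdc1a at chr3:159495183-159495482, both on the + strand. Capitals mark CHR and CCAAT letters in either orientation, searched on both strands, which can overlap each other but do not here.
Prc1: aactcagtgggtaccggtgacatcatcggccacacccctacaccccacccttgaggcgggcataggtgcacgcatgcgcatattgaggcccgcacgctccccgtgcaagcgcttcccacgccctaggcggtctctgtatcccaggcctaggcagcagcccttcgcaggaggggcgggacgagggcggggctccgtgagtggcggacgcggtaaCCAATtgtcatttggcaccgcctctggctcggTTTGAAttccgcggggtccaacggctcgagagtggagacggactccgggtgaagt
Depdc1a: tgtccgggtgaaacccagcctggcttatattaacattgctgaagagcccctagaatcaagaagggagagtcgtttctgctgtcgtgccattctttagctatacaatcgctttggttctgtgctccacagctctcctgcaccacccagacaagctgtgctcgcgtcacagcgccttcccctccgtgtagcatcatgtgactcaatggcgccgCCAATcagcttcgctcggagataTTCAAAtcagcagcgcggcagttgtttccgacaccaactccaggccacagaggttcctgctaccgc
Windows were found for 24 of the 28 G2/M genes above the floor, 25 windows in all. The CHR letters stood in 17 of these (68%), against 17.9% of all 32851 promoter windows, and the CCAAT letters in 21 (84%), against 37.4%. Both stood in 16 (64%), against 6.95%. A match describes the letters in a window and says nothing of a factor's binding in these cells.

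G2/M genes lay on the higher side in Cdh1-lacking cells when all cells were used. Of the 28 members that passed the floor, 24 had ratios above the all-gene median, 8 were higher by 2-fold or more against a background of 6.69%, and none was lower by as much. The list median was 0.62, with 1.86, 0.19 and 1.68 within sets and 0.57 with a mitochondrial share of at least 1%. The direction did not hold throughout: within sets, in cells with such a share, it was 1.62 in set 1, -0.79 in set 2 and -1.40 in set 3, although sets 2 and 3 then hold only 4 Cdh1-lacking cells each. Per cell, the summed level of the G2/M genes had a median of 508 TPM in Cdh1-lacking cells (quartiles 163 and 2677), 278 TPM in Cdh1-retaining cells (149 and 1738) and 3121 TPM in Ecad+ cells (268 and 4902). The interquartile ranges of the Ecad- classes overlapped almost wholly, and both medians lay far below that of Ecad+ cells.

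Prc1 had a lowest, median and highest level of 0, 21.3 and 289 TPM in Cdh1-lacking cells, 0, 2.05 and 305 TPM in Cdh1-retaining cells and 0, 72.9 and 548 TPM in Ecad+ cells. Its relative log2 ratio was 1.23, with 2.04, 1.81 and 1.84 within sets, 1.35 at a share of at least 1%. Depdc1a was above 0 in 12 of 27 Cdh1-lacking and 14 of 40 Cdh1-retaining cells, with a median of 0 TPM in both and means of 66.4 ± 101 TPM in Cdh1-lacking and 22.4 ± 57.8 TPM in Cdh1-retaining cells. The mitotic kinase gene Nek2 stood at 2.39 over all cells. The kinetochore gene Cenpf stood at 1.69, with 2.35, 0.59 and 1.19 within sets, 1.32 at a share of at least 1%. Cenpf medians were only 1.46 TPM in Cdh1-lacking and 0.0722 TPM in Cdh1-retaining cells. Prc1, Depdc1a, Nek2 and Cenpf all fell on the lower side in set 3 with a share of at least 1%. By detection, Top2a, Prc1, Cdk1 and Ccna2 were above 0 in 26, 25, 24 and 19 of 27 Cdh1-lacking cells. In Cdh1-retaining cells the counts were 35, 29, 29 and 26 of 40. They reached 10 TPM in 15, 15, 21 and 9 of 27 Cdh1-lacking and 14, 16, 26 and 13 of 40 Cdh1-retaining cells. Mki67, the Ki-67 gene, went the other way by detection: it was above 0 in 9 of 27 Cdh1-lacking (33.3%, exact interval 16.5% to 54.0%), 21 of 40 Cdh1-retaining (52.5%, exact interval 36.1% to 68.5%) and 75 of 100 Ecad+ cells (75.0%, exact interval 65.3% to 83.1%). It reached 10 TPM in 1 of 27 Cdh1-lacking, 5 of 40 Cdh1-retaining and 42 of 100 Ecad+ cells. Its mean of 4.07 ± 15.6 TPM in Cdh1-lacking cells rests largely on that 1 cell, at 81.4 TPM, and the mean was 3.72 ± 6.89 TPM in Cdh1-retaining cells. Of 22 G1/S genes 13 lay above the all-gene median, with a list median of 0.36 over all cells, 1.03, 0.33 and -0.16 within sets and -0.14 with a mitochondrial share of at least 1%. Pola1, the catalytic subunit gene of DNA polymerase alpha, was higher in each set (1.51, 0.99 and 2.19 within sets, 1.81 at a share of at least 1%), with 112 ± 227 TPM in Cdh1-lacking and 27.6 ± 38.9 TPM in Cdh1-retaining cells. Cdkn1a, which encodes the cell cycle inhibitor p21, averaged 164 ± 201 TPM in Cdh1-lacking and 103 ± 184 TPM in Cdh1-retaining cells (relative 0.75, 0.53, 0.55 and -0.12 within sets, 1.93 at a share of at least 1%), against 34.3 ± 80.4 TPM in Ecad+ cells.

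**Figure D4:**
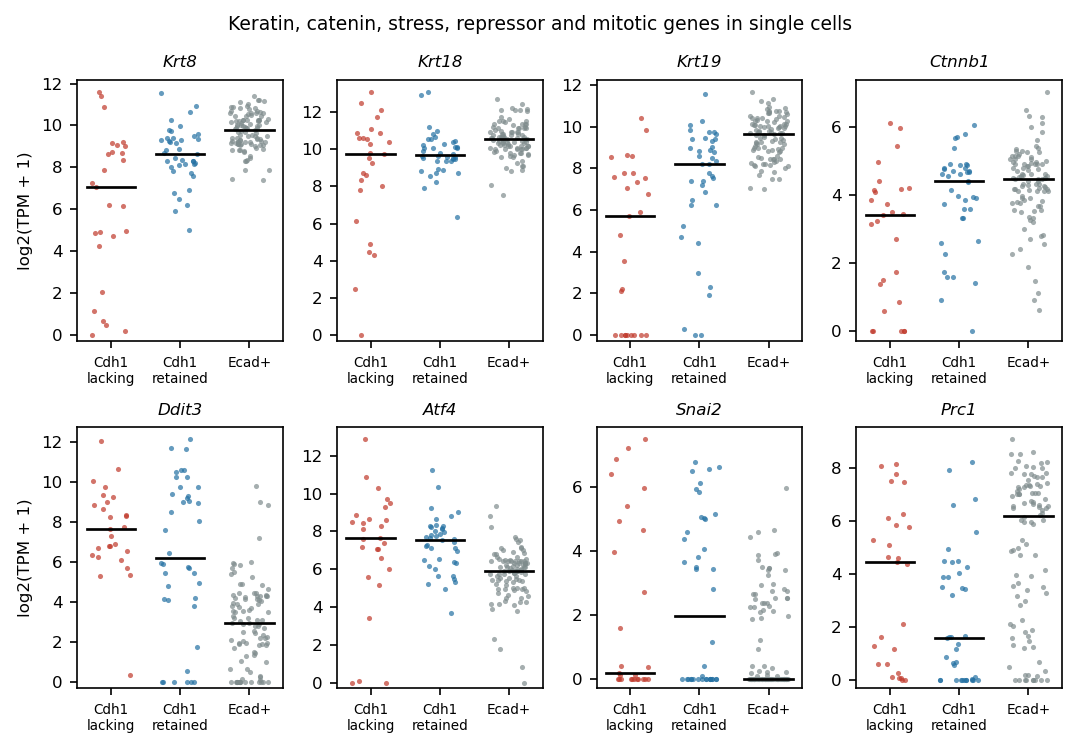
Levels of 8 further genes, on a log2(TPM + 1) scale (y axis), in Cdh1-lacking, Cdh1-retaining and Ecad+ cells (x axis); each point is 1 cell and the line is the median. Krt18 and Atf4 had like medians in both Ecad- classes, Ddit3 was above the Ecad+ median in both, and Prc1 had medians of 21.3, 2.05 and 72.9 TPM in Cdh1-lacking, Cdh1-retaining and Ecad+ cells.

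Ddit3 and Atf4, genes of the stress response, had higher medians in both Ecad- classes than in Ecad+ cells. The integrated stress response, set off by phosphorylation of eIF2alpha, raises ATF4 and CHOP. Ddit3, the CHOP gene, had a lowest, median and highest level of 0.272, 198 and 4231 TPM in Cdh1-lacking cells, 0, 72.6 and 4418 TPM in Cdh1-retaining cells and 0, 6.70 and 895 TPM in Ecad+ cells. Both Ecad- classes thus had a median more than 2-fold above that of Ecad+ cells. The means were 472 ± 836 TPM in Cdh1-lacking and 607 ± 1003 TPM in Cdh1-retaining cells, so the mean and the median put the classes in opposite order. The relative log2 ratio was -0.29, with -1.09, -0.50 and 1.16 within sets, 0.91 at a share of at least 1%, so its sign differed between settings. Atf4 had median levels of 198 TPM in Cdh1-lacking, 189 TPM in Cdh1-retaining and 59.7 TPM in Ecad+ cells. Its mean ratio of 1.21 came from set 3 (1.12, against -0.22 and -0.42 in sets 1 and 2, and 0.21 over cells with a share of at least 1%), with 1 Cdh1-lacking cell at 7500.4 TPM. Ppp1r15a, the gene of a phosphatase subunit that reverses eIF2alpha phosphorylation, likewise stood at 1.50 overall and at -0.34, -0.14 and 1.48 within sets, 1.08 at a share of at least 1%. Over 32 integrated stress response genes the list median was 0.34, with -0.34, -0.37 and 1.03 within sets and -0.064 at a share of at least 1%. Of these genes 4 were higher by 2-fold or more and 1 lower, against 6.69% and 7.68% of all genes. Slc7a3, a cationic amino acid transporter gene, was the 1 member lower by 2-fold or more, with 4.88 ± 12.8 TPM in Cdh1-lacking and 24.3 ± 48.5 TPM in Cdh1-retaining cells (relative -2.03, -1.74, -4.80 and -0.32 within sets, -1.19 at a share of at least 1%).

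Unfolded protein response, lysosome, class I, sterol and mitochondrially encoded genes had list medians that changed sign between sets. Over 26 unfolded protein response genes the list median was 0.29 (-0.18, 0.25 and 0.50 within sets, -0.0024 at a share of at least 1%), and over 31 autophagy and lysosome genes 0.22 (-0.62, -0.27 and 0.28 within sets, 0.18 at a share of at least 1%). Of the first list 3 members were higher by 2-fold or more and 0 lower, and of the second 3 and 1. Over all genes 6.69% were higher and 7.68% lower by as much. Glb1, a lysosomal galactosidase gene, was the 1 lysosome gene lower by 2-fold or more, at -2.18 (-1.95, -0.82 and -1.07 within sets, -2.04 at a share of at least 1%). Of 14 oxidative stress and iron genes (median 0.017, -0.15, -0.37 and -0.0066 within sets, 0.40 at a share of at least 1%), Slc40a1 was the 1 past 2-fold. It encodes the iron exporter ferroportin and was lower in each set (-1.73, -1.18 and -2.65 within sets, -1.24 at a share of at least 1%), with 4.37 ± 13.0 TPM in Cdh1-lacking and 17.3 ± 23.3 TPM in Cdh1-retaining cells. Over 11 class I antigen presentation genes the list median was -0.14 (-0.034, 0.41 and 0.14 within sets, 0.22 at a share of at least 1%). B2m averaged 826 ± 872 TPM in Cdh1-lacking and 553 ± 467 TPM in Cdh1-retaining cells, both above the 256 ± 153 TPM of Ecad+ cells (relative 0.65 between the Ecad- classes, -0.034, 0.58 and 0.45 within sets, 0.84 at a share of at least 1%). H2-K1, a class I heavy chain gene with close paralogs that can share reads, stood at -0.27, with -1.59, -0.52 and 0.14 within sets, -0.64 at a share of at least 1%. Over 18 cholesterol and fatty acid synthesis genes the list median was -0.46, but 0.0026 with a mitochondrial share of at least 1% and -0.36, 0.54 and -1.20 within sets. Over all cells 5 of the 18 were lower by 2-fold or more and 0 higher. Sc4mol, a sterol demethylation enzyme gene, was lower in each set (-0.87, -2.16 and -0.64 within sets, -0.90 at a share of at least 1%). All 13 mitochondrially encoded genes lay below the all-gene median over all cells, with a list median of -0.65. Within sets it was 0.81, 1.16 and -3.60, so the sets went opposite ways, and at a share of at least 1% it was -0.057. For mt-Co3, a subunit gene of cytochrome c oxidase, the relative ratio was -0.77 over all cells and -0.17 with a mitochondrial share of at least 1%.

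Lists of signalling and other programmes had all-cell medians between -0.24 and 0.33, but within sets several lay much further out and on both sides. Over all genes 6.69% were higher and 7.68% lower by 2-fold or more. Members past 2-fold numbered 4 higher and 1 lower of 13 p53 targets and cell cycle inhibitors (median 0.31), 2 higher and 2 lower of 9 NF-kB and cytokine genes (0.33) and 2 higher and 1 lower of 7 interferon response genes (0.22). They numbered 2 higher and 1 lower of 13 heat shock genes (0.21), 1 higher and 0 lower of 7 YAP targets (0.14) and 2 higher and 0 lower of 20 hypoxia and glycolysis genes (0.049). Among growth genes downstream of MAPK they numbered 1 higher and 0 lower of 11 (-0.025), and among epithelial transcription factors 2 higher and 0 lower of 7 (-0.24). Of these 7 factor genes 2 lay above and 5 below the all-gene median. Ehf, 1 of the 2 higher, averaged 32.1 ± 87.9 TPM in Cdh1-lacking and 4.70 ± 12.0 TPM in Cdh1-retaining cells. Its relative log2 ratio was 2.61, with 3.96, 2.43 and 0.75 within sets, 3.05 at a share of at least 1%. The Ehf median was 0 TPM in both classes. No member past 2-fold was found among 4 beta-catenin targets (0.25), 17 nuclear genes of the respiratory chain (0.010) or 6 pancreatic driver genes (-0.15). The other cadherins and the desmosome genes each had 2 members above the floor, none past 2-fold. In sets 1, 2 and 3 the medians were -0.38, 1.98 and -1.32 for NF-kB and cytokine genes (-0.11 at a share of at least 1%) and -0.28, 1.54 and -0.60 for interferon response genes (0.57 at a share of at least 1%). They were 0.50, 1.16 and -0.19 for YAP targets (-0.32 at a share of at least 1%) and -0.28, 0.83 and -0.98 for beta-catenin targets (0.15 at a share of at least 1%). Those of epithelial transcription factors and MAPK genes were 0.062, 0.31 and -0.37 (-0.36 at a share of at least 1%) and 0.52, -0.16 and -0.62 (-0.060 at a share of at least 1%). The medians came to -0.22, 0.10 and 0.28 for p53 targets and cell cycle inhibitors (0.18 at a share of at least 1%), 0.071, -0.15 and 0.24 for heat shock genes (0.20 at a share of at least 1%) and -0.34, 0.37 and 0.21 for hypoxia and glycolysis genes (-0.20 at a share of at least 1%). Finally, they came to -0.48, 0.019 and 0.43 for driver genes (-0.50 at a share of at least 1%) and 0.035, 0.046 and 0.079 for respiratory chain genes (-0.0028 at a share of at least 1%).

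**Figure D5:**
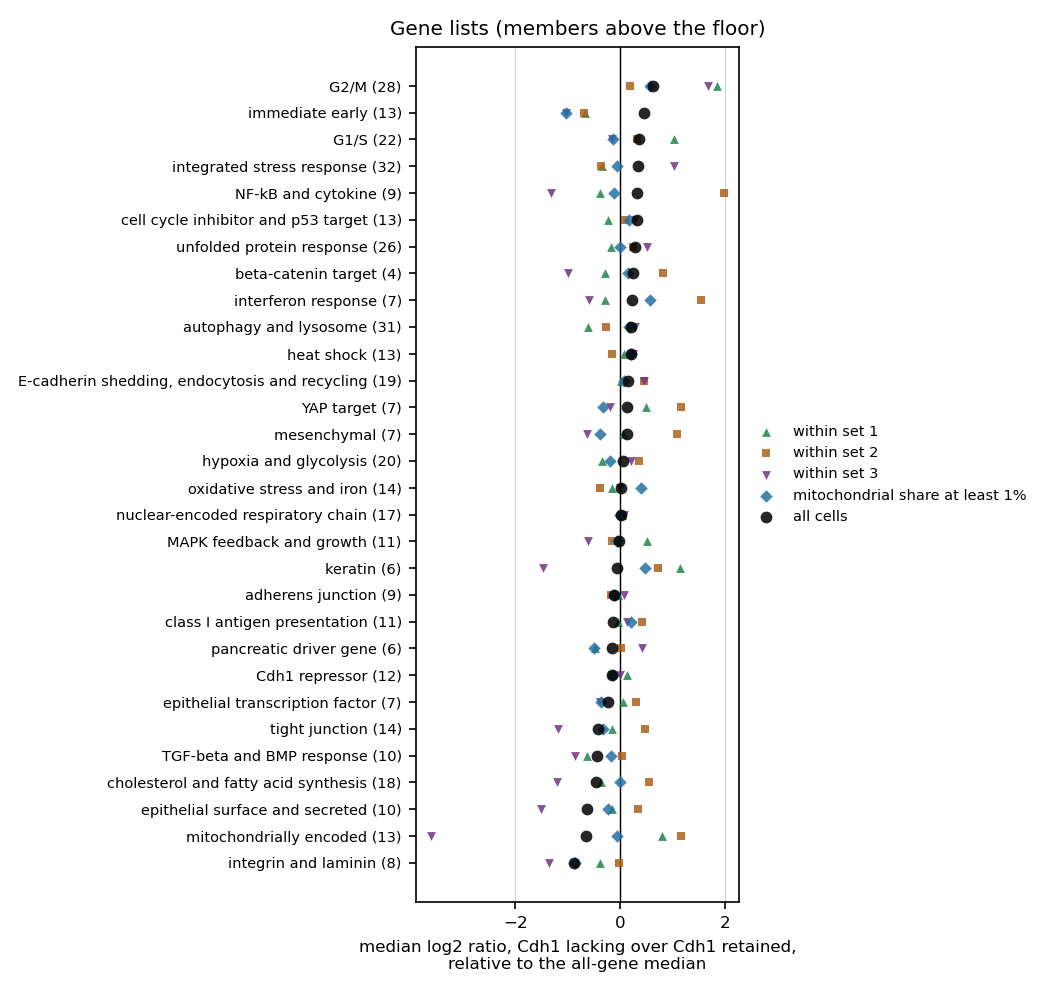
Median log2 ratio of Cdh1-lacking over Cdh1-retaining cells, relative to the all-gene median (x axis), for each gene list with at least 3 members above the floor (y axis, number of members in brackets); black points are all cells, other symbols the single library sets and cells with a mitochondrial share of at least 1%. Integrin and laminin genes were lowest at -0.88 and G2/M genes highest at 0.62, and the mitochondrially encoded genes ran from -3.60 in set 3 to 1.16 in set 2.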

How the data were processed

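Single cells of the line were measured by RNA sequencing. Capture (Fluidigm C1), amplification (SMARTer) and library preparation (Nextera XT) are per the labels' protocols. Per the submitters' processing notes, FastQC 0.11.5, kallisto and the mm10 build were used; transcript index and cell filters: not given in the sources used here. For 28987 genes in 202 libraries, log2 values were deposited by the authors in a single table. Back-transformed as TPM, library sums ran from 933711 to 987134, which makes the unit log2(TPM + 1); depth per library is unknown. The authors' deposited group means and comparison, also on a log2 scale, were not used.

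The members, gene lists and naming rules were chosen with earlier results of these data known. Libraries correlating above 0.97 were averaged as 1 cell. Group means of TPM were compared as log2 ratios with a pseudocount of 1 TPM, relative to the all-gene median, and a gene counted as different at 2-fold or more. The floor was 5 TPM on average and above 0 in 10% of cells. Named genes were every adherens junction and Cdh1 repressor member above the floor, set marker genes, up to 4 members of each of 38 lists with the largest relative ratio, and 12 ranked genes in each direction; of these the text gives those its results turn on. Passing over gene models without a proper symbol removed 2 from the ranking. Coordinates are from GENCODE on mm10 and promoters from RefSeq on GRCm38.p6. Because each group is 1 sample, no test was run. Exact binomial intervals are at 95%. The ratio step was checked on groups drawn with replacement from the real Ecad- libraries, with known fold changes multiplied into some genes. This checks the arithmetic of the ratio only. There were 24 alternatives, 3 of them chosen after seeing the data (within sets, with a mitochondrial share of at least 1%). Python 3.11.15, numpy 2.4.6, pandas 2.3.3, scipy 1.17.1 and matplotlib 3.10.9 were used.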

Additional observations from a re-analysis of the deposited data

How the results depend on the processing

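No paired analysis was possible because the cells carry no shared replicate numbers and each group is 1 sample. Integrin and laminin genes kept a negative list median under every alternative; it was nearest to 0 in set 2, at -0.014, and at -0.11 there with a mitochondrial share of at least 1%. The count of genes higher by 2-fold or more, 493 over all cells, was 195 with a pseudocount of 10 TPM, 1004 with no floor, 96 with a floor of 50 TPM, 1209 with a mitochondrial share under 1%, 802 against cells with Cdh1 at 5 or more and 780 without set 2. It was 840, 924 and 1355 within sets 1, 2 and 3, and 816, 1170 and 1577 there with a mitochondrial share of at least 1%. The count of lower genes, 566, was 1494 with medians in place of means, 164 with a pseudocount of 10 TPM, 1253 with no floor, 100 with a floor of 50 TPM, 1193 with a mitochondrial share under 1% and 875 without set 2. It was 1041, 1365 and 1379 within sets, and 1032, 1561 and 1731 there with a mitochondrial share of at least 1%. The construction of these settings changes how many genes or cells enter.

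The adherens junction median (-0.11) was -0.38 with medians, 0.18 with a floor of 50 TPM, 0.40 with a mitochondrial share under 1%, -0.46 against Cdh1 at 5 or more, 0.022 without set 1, 0.070 in set 3 and 0.039 with sets weighted equally. With a mitochondrial share of at least 1% it was -0.49 in set 2 and -0.42 in set 3. The G2/M median (0.62) was 1.83 with a mitochondrial share under 1%, 1.86 in set 1 and 1.68 in set 3, and with a share of at least 1% it was 1.62, -0.79 and -1.40 in sets 1, 2 and 3. The integrated stress response median (0.34) was 1.38 in set 3 with a share of at least 1%. The gap in median mitochondrial share, Cdh1-lacking minus Cdh1-retaining, was -15.0 percentage points over all cells, 27.3 within set 2 and 20.0 without set 3. The gap in median genes above 0 was -418.5, and -605.5 without set 1.

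Genes changed sign in these settings, and the cause was not tested. With medians in place of means Aldoc, Cldn3, Epcam and Slc7a3 stood at 0.24, as all have a median of 0 in both classes. In set 1 Atf4 stood at -0.22, Ppp1r15a at -0.34, Cldn3 at 0.40, Fos at 0.0029, Foxq1 at 0.83, Itga3 at 0.24 and Krt19 at 0.042; with a share of at least 1% Atf4 stood there at -0.26, Ppp1r15a at -0.42, Cldn3 at 0.15 and Foxq1 at 0.61. In set 2 Atf4 stood at -0.42, Ppp1r15a at -0.14, Itga3 at 0.048, Itgb5 at 0.75, Krt19 at 0.72, Msln at 0.68 and Muc1 at 0.097; with a share of at least 1% Itgb5 stood there at 0.98, Krt19 at 0.27 and Cav1 at -0.95. In set 3 with a share of at least 1%, which leaves 4 Cdh1-lacking and 5 Cdh1-retaining cells, Arl5b stood at -0.30, Cenpf at -3.78, Chpt1 at -1.36, Depdc1a at -1.24, Nek2 at -0.33, Prc1 at -0.71, Vcl at -2.28 and Glb1 at 0.064. Without set 3 Atf4 stood at -0.30, Ppp1r15a at -0.23 and Krt19 at 0.16. With a mitochondrial share under 1% Cldn6 stood at 0.077, Clec2f at -0.13, Krt19 at 0.33 and Muc1 at 0.87. In cells with at least the median number of genes above 0, Krt19 stood at 0.11 and Vcl at -0.051. Read depth per cell is unknown, so values near 0 cannot be bounded.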
